A study of Mus musculus with 44 samples.

Results

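Cortical neurons of newborn mice, kept for 14 days in vitro (DIV14), were profiled after 30 min with brain-derived neurotrophic factor (BDNF) and in an unstimulated culture of the same age. This pair makes up 6 of the 44 samples of the series, and each culture had 1 RNA-seq, 1 ribosome-profiling and 1 TAIL-seq library. The libraries were taken by their labels, so no measured value chose them. Both cultures came from cortices of pups of both sexes and had been exposed to cytosine arabinoside, a poison of dividing cells, and each sample mixed cells of several animals. The dose of BDNF is not given in the sources used here. Some cultures of the study were prepared in 2 batches of 3, and the sources do not name the batch of either culture, so a batch difference and the effect of BDNF cannot be told apart. Because each group had 1 library per assay, the values below compare 2 cultures, and no p-value was computed.

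BDNF is a neurotrophin that binds the receptor kinase TrkB, the product of Ntrk2. TrkB signals through the Ras–ERK, PI3K–Akt and phospholipase C pathways, and kinases at the end of these pathways phosphorylate transcription factors such as CREB and SRF partners that already sit at their target promoters. The first genes to respond, the immediate-early genes (IEGs), therefore need no new protein synthesis. BDNF is also known for raising local protein synthesis at synapses through mTOR and the cap-binding factor eIF4E.

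RNA-seq gave 479526 reads on genes after BDNF and 508771 without it. Ribosome profiling, which sequences ribosome-protected fragments (RPFs), gave 3697441 and 4337282, and TAIL-seq, which sequences the 3′ end of an mRNA together with its poly(A) tail, gave 1057812 and 1042761 tags. A change is the ratio of 2 counts, each divided by its library's counts on genes, with the exact 95% Clopper-Pearson interval. Intervals cover counting error only, since amplified reads are not independent molecules. A gene was called higher or lower where it had at least 30 counts over both libraries, differed by at least 2-fold and had an interval that excluded 1.

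The cultures carried the mRNAs of neurons. Snap25, a synaptic vesicle fusion protein, had 303 RNA-seq reads after BDNF and 248 without it, and the 10 neuron markers summed to 22678 and 25578 RPFs. Each of these 10 markers had at least 30 counts in each assay, and 1 of them was called, Nefm with 48 and 18 RNA-seq reads but 598 and 588 RPFs. Astrocyte mRNAs were present as well, at 8227 and 11736 summed RPFs of 8 markers. In such bulk samples, fewer cells of a type and less RNA per cell cannot be told apart.

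RNA-seq called 54 of 6625 genes higher after BDNF (0.815%) and 73 lower (1.1%). RPFs called 63 of 10991 genes higher (0.573%) and 253 lower (2.3%), and TAIL-seq tags called 53 of 7861 higher (0.674%) and 92 lower (1.17%). Most of the calls rested on few counts. Of the genes called higher, 46 in RNA-seq, 43 in RPFs and 38 in tags had under 100 counts over both libraries. The assays shared few calls. Of 5732 genes with enough counts in all 3 assays, 13 were higher in each (0.227%), and 18 genes were higher in at least 2 assays.

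The 13 genes were the transcription factors Npas4, Fos, Egr2, Junb, Ier2, Egr4 and Nr4a1, the effectors Arc, Arl4d and Gadd45g, the deadenylation factor Btg2, the cochaperone Dnajb1 and the predicted gene Gm13889. In RNA-seq their ratios ran from 2.59-fold to 62.1-fold. These sizes depended on the 1 control library. With the GFP culture (a second unstimulated culture, described below) as the control, the RNA-seq ratios ran from 2.68-fold to 32.7-fold, and those of 7 genes moved by over 1.5 times. Npas4 went from 62.1-fold to 15.6-fold, Fos from 33.6-fold to 10.4-fold and Egr2 from 30.2-fold to 5.33-fold. Arl4d went from 7.43-fold to 4.23-fold, Gadd45g from 7.62-fold to 3.88-fold and Dnajb1 from 5.30-fold to 2.85-fold, while Ier2, with 1 read in the GFP culture, went from 18.6-fold to 32.7-fold. RPF ratios moved that far for 4 genes and tag ratios for 5. Of the 18 genes higher in at least 2 assays, 16 belonged to the lists of early transcription factors, early effectors and inhibitors of ERK signalling or were the deadenylation factor Btg2. The 2 others were Dnajb1 and Gm13889. The lists, of 34, 36 and 18 genes, were chosen with earlier results of these data known, and Btg2 is from a list of tail and decay factors. Membership in them is therefore a description and no independent support.

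Among the transcription factors, Npas4, an activity-dependent factor of neurons, had 117 RNA-seq reads after BDNF and 2 without it (62.1-fold, 16.8 to 518.5). It had 1122 and 91 RPFs (14.5-fold, 11.7 to 18.1) and 53 and 3 tags (17.4-fold, 5.64 to 87.1). The control counts of 2 reads and 3 tags left the RNA-seq and tag ratios wide, whereas the RPF ratio was narrow. Fos, a subunit of the AP-1 factor, had 222 and 7 reads, 4254 and 186 RPFs, and 882 and 87 tags. Its RPF ratio of 26.8-fold (23.2 to 31.2) was the highest RPF ratio of the 13 genes. With the GFP culture as the control it was 16.6-fold, below the 20.4-fold of Btg2. Junb, another AP-1 subunit, had 284 and 33 reads, 2912 and 400 RPFs (8.54-fold, 7.69 to 9.50), and 531 and 110 tags. It was the transcription factor of this group with the most reads in the unstimulated culture.

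The zinc-finger factor Egr2 had 57 and 2 reads, 989 and 83 RPFs (14.0-fold, 11.2 to 17.7), and 205 and 34 tags (5.94-fold, 4.12 to 8.82). Its relative Egr4 started higher and changed less, with 50 and 6 reads, 1577 and 313 RPFs (5.91-fold, 5.23 to 6.69), and 490 and 114 tags (4.24-fold, 3.45 to 5.24). With the GFP culture as the control, Egr4 changed less in RPFs and tags but more in RNA-seq (11.7-fold against 5.33-fold for Egr2). Ier2, a nuclear protein of the immediate-early class, had 35 and 2 reads, 648 and 41 RPFs (18.5-fold, 13.5 to 26.1), and 272 and 25 tags (10.7-fold, 7.11 to 16.9). Nr4a1, an orphan nuclear receptor, had 49 and 9 reads, 724 RPFs after BDNF (5.48-fold, 4.60 to 6.56), and 219 and 45 tags (4.80-fold, 3.47 to 6.77). For Nr4a1 the 3 assays gave nearly the same ratio, between 4.80-fold and 5.78-fold. With the GFP culture as the control they gave 6.54-fold in RNA-seq, 6.21-fold in RPFs and 3.84-fold in tags.

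Among the effectors, Arc, which governs the removal of AMPA receptors from synapses, had 249 and 10 reads, 3201 and 199 RPFs (18.9-fold, 16.3 to 21.9), and 385 and 32 tags (11.9-fold, 8.26 to 17.6). Arl4d, a small GTPase of the Arf-like family, had 77 and 11 reads (7.43-fold, 3.93 to 15.5), 592 and 79 RPFs (8.79-fold, 6.94 to 11.3), and 162 and 26 tags (6.14-fold, 4.04 to 9.69). Gadd45g, a stress-response protein, had 79 and 11 reads, 694 and 145 RPFs (5.61-fold, 4.69 to 6.76), and 239 and 70 tags (3.37-fold, 2.57 to 4.46). Arc thus had a larger RPF ratio than Arl4d and Gadd45g, beyond the counting intervals of all 3.

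Btg2, an adaptor that brings the CCR4–NOT deadenylase to mRNAs, had 62 and 5 reads (13.2-fold, 5.34 to 41.9), 409 and 36 RPFs (13.3-fold, 9.47 to 19.3), and 430 and 89 tags (4.76-fold, 3.78 to 6.05). Dnajb1, an Hsp40 cochaperone, had 125 and 25 reads (5.30-fold, 3.43 to 8.51), 617 and 273 RPFs (2.65-fold, 2.30 to 3.07), and 170 and 67 tags (an interval of 1.87-fold to 3.37-fold). Gm13889 had 66 and 27 reads, 400 and 180 RPFs (2.61-fold, 2.18 to 3.13), and 429 and 188 tags (2.25-fold, 1.89 to 2.68). Dnajb1 and Gm13889 had the smallest ratios of the 13 genes, and both were already well above 10 reads in the unstimulated culture.

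**Figure D1:**
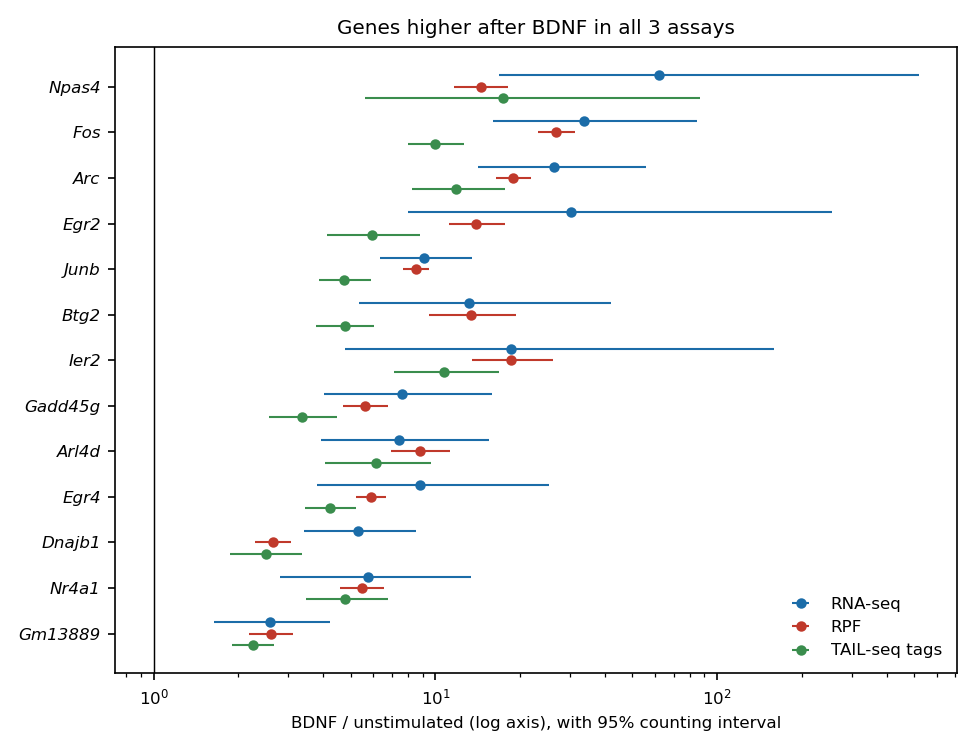
Ratio of BDNF to unstimulated counts (log axis) for the 13 genes called higher in RNA-seq, RPFs and TAIL-seq tags, each point 1 ratio with its 95% counting interval. All intervals lie above 1 because the genes were chosen by this rule. The widest belong to RNA-seq of genes with few control reads such as Npas4 and Egr2. The tag ratio lies below the RNA-seq ratio in 13 of 13 genes (in 11 of 13 with the GFP culture as the control).

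The genes called in 2 of the assays missed the third by depth or by size. Egr1, a zinc-finger factor, had 5318 and 1256 RPFs (4.97-fold, 4.67 to 5.29) and 698 and 213 tags (3.23-fold, 2.77 to 3.78), but only 16 and 4 RNA-seq reads, under the minimum of 30. Fosb, another member of the Fos family, had 369 and 73 RPFs (5.93-fold, 4.60 to 7.73), 54 and 9 tags (5.91-fold, 2.90 to 13.6), and 21 and 2 reads. Dusp1, a phosphatase of MAP kinases, had 596 and 104 RPFs (6.72-fold, 5.45 to 8.36), 223 and 60 tags (3.66-fold, 2.74 to 4.96), and 13 and 3 reads. These 3 genes were too shallow in RNA-seq for a call. Jun had 49 and 14 reads (3.71-fold, 2.02 to 7.28) and 936 and 468 RPFs (2.35-fold, 2.10 to 2.63), and its 204 and 123 tags gave 1.63-fold (1.30 to 2.06). Dusp6, a cytoplasmic phosphatase of ERK, had 79 and 36 reads (2.33-fold, 1.55 to 3.56) and 639 and 315 RPFs (2.38-fold, 2.08 to 2.73), and its 161 and 97 tags gave 1.64-fold (1.26 to 2.13). The tag intervals of Jun and Dusp6 excluded 1, at ratios below the 2-fold threshold.

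The list of early transcription factors held 34 genes. RNA-seq called 9 of the 14 members with enough counts higher, RPFs 11 of 31 and tags 10 of 24, and none was lower in any assay. Of all genes, 0.815%, 0.573% and 0.674% were called higher, and 1.1%, 2.3% and 1.17% lower. The median ratios of these measured members were 4.75-fold, 1.39-fold and 1.23-fold. Over all genes at 100 counts or more, the log2 medians were 0.02, −0.04 and 0.01. The members needed only 30 counts over both libraries, so these medians are not directly comparable. This minimum also raises the RNA-seq median, since Npas4, Egr2 and Ier2, with 2 control reads each, passed it through their reads after BDNF. Between the GFP culture and the control, 7 of the 34 members passed it in RNA-seq. Outside the genes already named, Egr3 was called in tags alone, with 301 and 93 tags (3.19-fold, 2.52 to 4.07) beside 546 and 375 RPFs (1.71-fold). Atf3 was called in RPFs alone, with 29 and 5 RPFs (6.80-fold, 2.60 to 22.5). Klf10 was called in RNA-seq alone, with 29 and 12 reads (2.56-fold, 1.27 to 5.52). The family members therefore did not change as 1 block. Nr4a2 had 30 and 33 RPFs, Nr4a3 had 316 and 294, Srf 88 and 94, Per1 391 and 433 and Myc 98 and 100, and none of these was called in an assay.

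The list of early effectors held 36 genes. RNA-seq called 6 of 19 members higher, RPFs 4 of 34 and tags 4 of 25, against 0.815%, 0.573% and 0.674% of all genes. RPFs called 1 of 34 lower, near the 2.3% of all genes. Beside Arc, Arl4d and Gadd45g, RNA-seq called Vgf, Bdnf and Fbxo33, RPFs called Gadd45b, and tags called Ppp1r15a. Bdnf itself, the gene for the added ligand, had 25 and 11 reads (2.41-fold, 1.14 to 5.43), 119 and 115 RPFs (1.21-fold, 0.93 to 1.58) and 82 and 56 tags (1.44-fold, 1.02 to 2.07). Its increase was thus seen in RNA-seq at a low count and not called in RPFs or tags. Plk2, a kinase that weakens synapses after strong activity, had 2091 and 1463 RPFs (1.68-fold, 1.57 to 1.79), below the threshold but with an interval above 1. The gene called lower was Gem, a small GTPase that inhibits calcium channels, with 11 and 29 RPFs (0.445-fold, 0.201 to 0.918). Homer1 had 75 and 79 reads, 263 and 264 RPFs, and 77 and 77 tags, so no change was detectable at this depth.

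The inhibitors that feed back on ERK signalling made up a list of 18 genes, of which RNA-seq called 1 of 6 higher, RPFs 3 of 17 and tags 1 of 11. These were Dusp1, Dusp6 and Dusp5, and the last had 64 and 34 RPFs (2.21-fold, 1.43 to 3.45). The Sprouty gene Spry2 had 230 and 186 RPFs (1.45-fold, 1.19 to 1.77), and Spry4 had 111 and 116. Over all genes, 0.815%, 0.573% and 0.674% were called higher.

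Few calls were made among the genes that carry the BDNF signal, as among all genes. Of 49 genes for neurotrophin receptors and their pathways, RNA-seq called 0 of 33 and tags 0 of 38, against 0.815% higher and 1.1% lower of all genes in RNA-seq and 0.674% and 1.17% in tags. Their ratios ran from 0.455-fold to 1.84-fold in RNA-seq (median 1.01-fold) and from 0.719-fold to 2.07-fold in tags (median 1.02-fold). RPFs called 1 of 47, Frs3, an adaptor of receptor kinases, which was lower with 7 and 27 RPFs (0.304-fold, 0.112 to 0.716). Ntrk2 had 360 and 423 reads, 3429 and 4590 RPFs (0.876-fold, 0.838 to 0.916) and 281 and 310 tags. Creb1, a factor that TrkB signalling phosphorylates, had 128 and 173 RPFs (0.868-fold, 0.685 to 1.10). No call was made among 21 mRNAs of synaptic plasticity in any assay. Camk2a, a kinase of synaptic strengthening, had 6036 and 6106 RPFs (1.16-fold, 1.12 to 1.20), and Grin1 and Gria2, subunits of glutamate receptors, had RPF ratios of 1.21-fold and 1.28-fold. Of the heat shock genes, Dnajb1 was called in each assay and no other member was. Hspa8 had 1485 and 1793 RPFs, and Hspa5 had 3863 and 4330.

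In the RefSeq annotation of GRCm38.p6, the 13 genes were short. The median length from first to last base was 3385 (1291 to 7950), against 28774 over 6595 genes tested in RNA-seq, of which 16.0% were at most as long as the longest of the 13. The median number of exons was 2 (1 to 8) against 11, and the median coding length was 1035 against 1572 bases. Ier2, Junb and Gm13889 had a single exon. Fos (NM_010234) lies on chromosome 12 from 85473890 to 85477274, Arc (NM_018790) on chromosome 15 from 74669081 to 74672570, and Junb (NM_008416) on chromosome 8 from 84976909 to 84978748. Npas4 (NM_153553), with the most exons of the 13 genes, lies on chromosome 19 from 4984354 to 4989971, and Nr4a1 (NM_010444), the longest, on chromosome 15 from 101266846 to 101274795. Btg2 (NM_007570) lies on chromosome 1 from 134074865 to 134079155, Egr2 (NM_010118) on chromosome 10 from 67537869 to 67542188, and Arl4d (NM_025404) on chromosome 11 from 101665541 to 101667832.

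Promoter sequences of RefSeq, 250 bases before to 50 after the start, were matched for 10 of the 13 genes. The short CRE core TGACG, read on both strands, was found in 9 of these 10 promoters and in 20.8% of all 32851 promoters. The full CRE TGACGTCA, which holds this core on both strands, was found in 2 of 10 (Arl4d and Btg2), against 1.79% of all. A CArG box, the motif bound by SRF, was found in 1 (Egr2), against 1.63%, and TATAAA in 3, against 13.6%. A match is a description of letters and not a bound site. Stretches of 6 promoters are shown because the genes moved together and because these stretches hold the matches, which stand in capitals (TGACG or its complement CGTCA, TGACGTCA, the CArG box, and TATAAA). They are given 5′ to 3′ on the strand of the gene, upstream of its start.
Fos, chr12:85473750-85473889, plus strand: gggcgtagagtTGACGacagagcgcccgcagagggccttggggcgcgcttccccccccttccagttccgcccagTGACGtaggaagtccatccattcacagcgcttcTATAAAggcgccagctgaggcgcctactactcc
Npas4, chr19:4990092-4990171, minus strand: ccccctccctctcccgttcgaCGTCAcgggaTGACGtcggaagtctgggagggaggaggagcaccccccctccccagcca
Egr2, chr10:67537749-67537828, plus strand: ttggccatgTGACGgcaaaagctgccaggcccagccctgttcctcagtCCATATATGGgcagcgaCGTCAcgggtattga
Nr4a1, chr15:101266756-101266835, plus strand: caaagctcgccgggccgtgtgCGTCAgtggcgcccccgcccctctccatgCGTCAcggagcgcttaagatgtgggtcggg
Arl4d, chr11:101665461-101665540, plus strand: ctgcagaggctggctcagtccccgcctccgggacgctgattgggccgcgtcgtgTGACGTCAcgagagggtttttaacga
Btg2, chr1:134079276-134079355, minus strand: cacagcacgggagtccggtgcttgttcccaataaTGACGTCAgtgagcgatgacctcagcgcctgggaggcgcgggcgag
In this set, Fos, Npas4, Egr2 and Nr4a1 each carry a pair of CRE cores in the stretch shown, and Arl4d and Btg2 carry 1 full CRE.

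Whether ribosomes followed the mRNA was read from the RPF ratio divided by the RNA-seq ratio of the same gene. For 10 of the 13 genes the RPF ratio was below the RNA-seq ratio, but the 95% interval of the quotient excluded 1 for only 2 of them, and for none was it above 1. The genes had themselves been chosen by these ratios, RNA-seq included, and with the GFP culture as the control 6 of the 13 were below and no interval excluded 1. Npas4 had a quotient of 0.233 (0.0567 to 0.958), which rested on 2 control reads, and Dnajb1 had 0.50 (0.318 to 0.786). With the GFP culture as the control they were 0.644 (0.292 to 1.42) and 1.07 (0.720 to 1.58). For Junb the quotient was 0.935 (0.643 to 1.36), for Btg2 1.01 (0.383 to 2.68) and for Gm13889 1.01 (0.621 to 1.63). Only Junb, Dnajb1 and Gm13889 of the 13 genes reached 10 RPM (reads scaled to the library's size by the authors) in both RNA-seq libraries, the minimum for a translational efficiency (TE) value. The other 10 genes have no TE change, and their quotients carry the error of few control reads. The tag ratio was below the RNA-seq ratio in 13 of 13 genes, with an interval below 1 for 7 of them (Fos, Arc, Egr2, Junb, Btg2, Gadd45g and Dnajb1). For Fos the quotient of tags over reads was 0.297 (0.136 to 0.650), and for Junb it was 0.521 (0.344 to 0.789). This too depended on the control, where 2 to 33 reads of these genes had been counted. With the GFP culture in its place, 11 of 13 tag ratios were below the RNA-seq ratio, and the interval lay below 1 for 3 genes (Npas4, Egr4 and Dnajb1), of which Dnajb1 alone was among the 7. Fos turned to 1.57 (0.828 to 2.96) and Gadd45g to 1.62 (0.776 to 3.38).

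**Figure D2:**
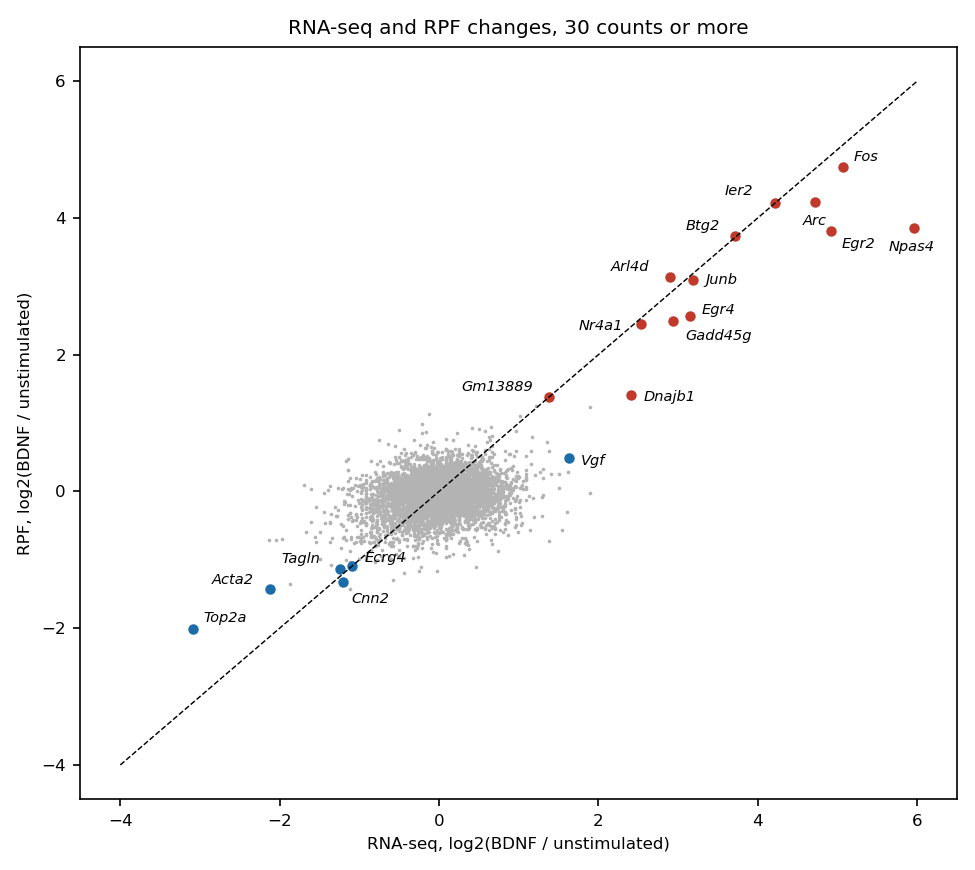
RPF change against RNA-seq change, both as log2 of BDNF over unstimulated, for genes with at least 30 counts in each assay and reads in both libraries. Grey points are all such genes, red points the 13 genes called higher in all 3 assays, blue points genes named in the text, and the dashed line marks equal changes. The 13 genes lie in the upper right by the rule that chose them. Of these, 10 lie below the line (some barely) and Arl4d above it, and the other genes form a cloud around 0.

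TE, the log2 ratio of RPF to RNA-seq RPM, was compared for 4705 genes with at least 10 RPM in both RNA-seq libraries and at least 1 RPF. The median change was −0.11 (log2) and the SD 0.33. A change of at least 2-fold with an interval that excluded 0 was found for 3 genes upward (0.0638%) and 34 downward (0.723%). Centred on the median, the counts were 10 upward and 18 downward, so the balance between directions moved with this scaling.

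Among the lowest TE changes, Camk2n1, an inhibitor of CaMKII, changed by −1.65 (−2.24 to −1.06), with 65 and 50 reads but 166 and 417 RPFs. Its 757 and 576 tags put it at 1.30-fold in TAIL-seq, so RPFs alone were lower. In the GFP culture, against the same control, its RPFs were lower too, at 180 and 417 (0.635-fold, 0.530 to 0.758), beside 40 and 50 reads. Pcsk1n, the gene for the granin-like protein proSAAS, changed by −1.22 (−1.67 to −0.77), with 83 and 90 reads, 802 and 2103 RPFs, and 287 and 227 tags. Vgf, a secreted neuropeptide precursor known to be induced by neurotrophins, changed by −1.23 (−1.73 to −0.73), with another pattern of counts. It had 128 and 44 reads (3.09-fold, 2.18 to 4.45), while its 4754 and 3988 RPFs gave 1.40-fold (1.34 to 1.46) and its 373 and 265 tags 1.39-fold (1.18 to 1.63). For Vgf, RPFs and tags gave nearly the same ratio and RNA-seq a larger one.

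Mphosph8, a chromatin silencing factor, changed by −1.44 (−2.07 to −0.82), Tmem151b by −1.47 (−2.16 to −0.77) and Fam174a by −1.40 (−2.13 to −0.66). For these genes, 34 to 37 control reads set the precision. The 3 genes with higher TE were Jag2, a Notch ligand, with a change of 1.41 (0.60 to 2.22), the nucleolar gene Knop1 with 1.24 (0.40 to 2.08), and Synrg, a partner of clathrin adaptors, with 1.00 (0.31 to 1.70). Each of these had 24 to 26 reads after BDNF. In the GFP culture described below, set against the same control, TE of Jag2 was also higher, by 1.08 (0.26 to 1.90), and TE of Mphosph8 was also lower, by −0.86 (−1.53 to −0.19). There Camk2n1 changed by −0.37 (−1.02 to 0.29), Fam174a by −0.66 (−1.44 to 0.13), Tmem151b by 0.30 (−0.49 to 1.09), Vgf by 0.00 (−0.58 to 0.59), Pcsk1n by 0.33 (−0.17 to 0.83) and Synrg by 0.35 (−0.21 to 0.91). Dnajb1 was among the 34 genes with lower TE, at −1.09 (−1.74 to −0.44), and had −0.94 (−1.71 to −0.17) in the GFP culture.

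The mRNAs through which mTOR raises protein synthesis were examined by themselves. These carry a 5′ terminal oligopyrimidine (TOP) motif and encode ribosomal proteins and translation factors. Of 76 genes of cytosolic ribosomal proteins, 20 had a TE value, with a median change of −0.01 (−0.52 to 0.84) and 0 calls. Of the other TOP mRNAs, 9 had a median TE change of 0.06 (−0.43 to 0.25), again with 0 calls. The median over all genes was −0.11. Summed over the other TOP mRNAs found in the files, RPFs were at 1.15-fold (1.13 to 1.18) and RNA-seq reads at 0.969-fold (0.916 to 1.03), and for the ribosomal protein genes these sums were 0.969-fold (0.940 to 1.00) and 0.895-fold (0.846 to 0.948). The GFP culture, against the same control, had sums of 1.08-fold and 0.961-fold for the other TOP mRNAs. With the GFP culture as the control of BDNF, these were 1.06-fold and 1.01-fold, and those of the ribosomal protein genes 1.12-fold and 0.972-fold. The median RPF ratio of the other TOP mRNAs was 1.05-fold, with 10 members above 1 and 4 below. An effect of BDNF on TOP mRNAs was not tested. Most of the 15170 RPFs summed over the other TOP mRNAs after BDNF came from Eef1a1 and Eef2. Eef1a1, an elongation factor, had 3948 and 3649 RPFs (1.27-fold, 1.21 to 1.33) beside 444 and 470 reads (1.00-fold), and Eef2 had 6261 and 6297 RPFs (1.17-fold, 1.13 to 1.21) beside 904 and 997 reads. Synaptic plasticity mRNAs had a median TE change of −0.17 over 18 genes, and BDNF signalling genes −0.12 over 24.

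Poly(A) tails were compared for 4098 genes with at least 50 tags in each library. Mean tails changed by a median of −1.04 nt, with an SD of 7.33 nt. A difference of 20 nt was taken as the threshold, and the files give no spread of tails within a gene. Tails were longer by at least this much for 29 genes (0.708%) and shorter for 34 (0.83%), or 33 and 21 after centring on the median. Synthetic standards added to each library showed how far the libraries themselves differed. The standard of 100 nt read 107.4 nt in the BDNF library and 108.3 nt in the control, and that of 200 nt read 185.6 and 188.3 nt. The 4 standards with at least 1000 tags in both libraries changed by −2.66 to 0.71 nt. Standards with fewer tags differed more. Of 15 standards of stated length, 14 read shorter after BDNF, and one of 250 nt with 173 and 128 tags read 20.1 nt shorter (155.1 against 175.3 nt), as much as the threshold. The largest change, −25.8 nt, was that of a 10 nt standard with 13 and 9 tags. No standard read more than 0.71 nt longer after BDNF.

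The longest gains, those of Egr4, Egr1 and Junb, were on IEG mRNAs. Of all 29 longer genes, 15 had a tag ratio under 1.5-fold. Egr4 went from 107.6 to 149.2 nt (41.6 nt longer), Egr1 from 123.5 to 159.5 nt (36.0 nt) and Junb from 113.7 to 148.3 nt (34.6 nt). Each had over 100 tags in both libraries. Of the 13 genes higher in all assays, 7 had 50 tags in both libraries, and all 7 were at least 20 nt longer. Gm13889 gained 31.9 nt, Gadd45g 30.5 nt, Dnajb1 29.9 nt, Btg2 29.8 nt and Fos 27.3 nt. Gadd45g had the longest tail of these in both cultures, at 140.5 and 171.0 nt. The other 6 genes had 3 to 45 control tags and entered no count. Arc read 119.7 nt in the control, from 32 tags, and 146.3 nt after BDNF, and Egr2 read 120.7 and 166.3 nt, from 34 and 205 tags.

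Higher tag counts and longer tails went together in this pair of cultures. Of the genes called higher in tags, 10 had a tail value, and all 10 were longer, by 20.1 to 41.6 nt (median 30.2 nt). The 4 genes called lower in tags had a median change of −0.77 nt (−4.04 to 5.74), and 4084 uncalled genes had −1.05 nt. Of these uncalled genes, 19 were longer and 34 shorter. Other lengthened mRNAs stayed below the 2-fold threshold in tags. Jun gained 27.5 nt at a tag ratio of 1.63-fold, Ccn1, a secreted matrix protein, 27.3 nt at 1.77-fold, Dusp6 20.4 nt at 1.64-fold and Pim3, a kinase, 34.1 nt at 1.61-fold with 93 and 57 tags. Tob1, a relative of Btg2 that also recruits the deadenylase, went from 90.7 to 119.4 nt with 121 and 84 tags (1.42-fold, 1.07 to 1.90). Pnrc1, a nuclear receptor coactivator, went from 56.4 to 87.0 nt with 83 and 74 tags (1.11-fold, 0.798 to 1.53), and its 327 and 438 RPFs and 34 and 41 reads were not higher either.

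**Figure D3:**
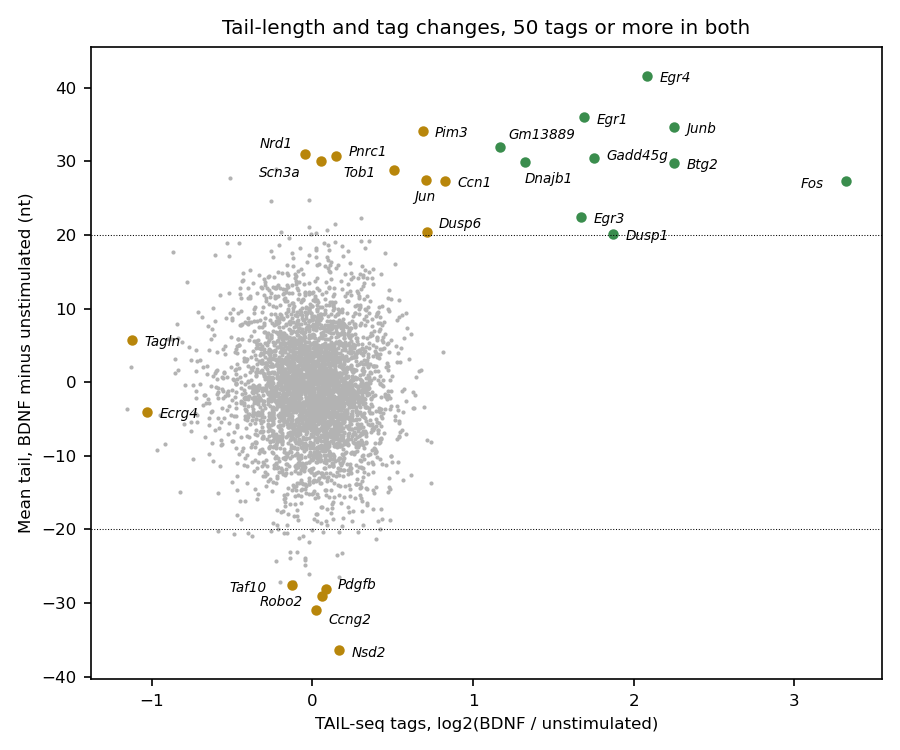
Change in mean tail length (nt) against change in TAIL-seq tags (log2 of BDNF over unstimulated) for 4098 genes with at least 50 tags in both libraries. Green points are called higher in tags, gold points are other genes named here, grey points the rest, and dotted lines mark 20 nt. All 10 green points lie above the upper line, and the grey cloud is centred near 0 nt.

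Other gains were measured on genes with few tags. Nrd1, a protease gene, gained 31.0 nt with 62 and 63 tags, and Scn3a, a sodium channel gene, gained 30.1 nt with 58 and 55 tags. The 5 largest losses had the same kind of support. Nsd2, a histone methyltransferase, lost 36.4 nt with 57 and 50 tags. Ccng2 (70 and 68 tags) changed by −30.9 nt, Robo2 (75 and 71) by −29.0 nt, Pdgfb (58 and 54) by −28.1 nt and Taf10 (53 and 57) by −27.6 nt. None of the 5 was called in reads, RPFs or tags. Of the 29 longer and 34 shorter genes, 23 and 32 had under 100 tags in a library. At 100 tags in both libraries, 6 genes were longer and 2 shorter of 2270.

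The mRNAs of tail and decay factors formed a list of 25 genes, of which Btg2 was the only one called in any of the 3 assays. Cnot1, the scaffold of the deadenylase complex, had 859 and 886 RPFs, and Cpeb4, which binds cytoplasmic polyadenylation elements, had 530 and 626. Of 9 members with tail values, Btg2, Tob1 and Pnrc1 were longer, against 0.708% of all genes with tail values.

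Tails in other DIV14 cultures are set beside those of BDNF. The culture stimulated for 30 min with glutamate and glycine (glu/gly) shares the control of BDNF, so chance values of that control enter both differences. Over all genes, tails changed by a median of −4.68 nt after glu/gly and −1.04 nt after BDNF, and the genes named here were chosen for long tails after BDNF. Egr4 read 136.9 nt after glu/gly against 149.2 nt after BDNF, Egr1 138.7 against 159.5 nt and Gadd45g 169.4 against 171.0 nt. Btg2 read 115.9 nt after glu/gly, 150.7 nt after BDNF and 121.0 nt in the control. Dnajb1 read 122.0, 151.3 and 121.4 nt, and Tob1 92.9, 119.4 and 90.7 nt in the same order. Dusp6 read 131.0 nt after glu/gly and 129.9 nt after BDNF. The difference between the stimuli was not tested, since each had 1 library.

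**Figure D4:**
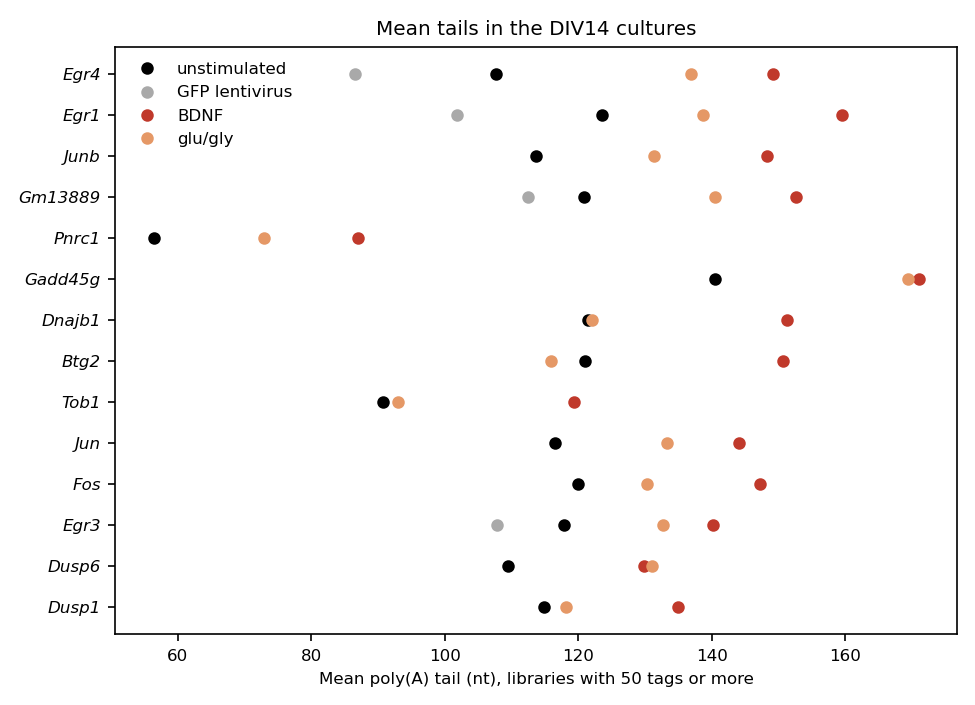
Mean poly(A) tail (nt) of 14 genes in 4 DIV14 cultures (unstimulated, GFP lentivirus, BDNF and glu/gly), 1 point per TAIL-seq library with at least 50 tags of the gene, so that the GFP culture has points for 4 genes. All 14 genes were chosen for tails at least 20 nt longer after BDNF than in the control, so the place of the BDNF points above the control restates that choice.

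A second unstimulated DIV14 culture, transduced with a lentivirus that expressed EGFP from the synapsin promoter, served to show how far 2 cultures differ by the same rules. Against the control of BDNF it had 67 of 6506 genes higher in RNA-seq (1.03%) and 138 lower (2.12%), 81 of 10828 higher in RPFs (0.748%) and 375 lower (3.46%), and 130 of 6926 higher in tags (1.88%) and 197 lower (2.84%). Each of these shares was larger than that of BDNF. By number of calls in a single assay, BDNF therefore did not stand out from a difference between cultures. The GFP culture had 0 of 5241 genes higher in all 3 assays (0%) but 10 lower (0.191%), a share near the 0.227% that BDNF had higher, so calls shared by 3 assays also arose between unstimulated cultures. Of the 13 genes it had 0 higher in RNA-seq, 1 in RPFs (Egr2, 118 and 83 RPFs, 2.09-fold) and 1 in tags (Arl4d, 20 and 26 tags, 2.06-fold). None of the 13 was called lower there. In RNA-seq, however, only Gm13889, Gadd45g, Junb and Dnajb1 of the 13 reached the count minimum in this pair. The others could not be called there and were not among the 5241 genes. Of these, Fos had 20 reads against 7 in the control (3.24-fold, 1.32 to 9.08) and Egr2 10 against 2 (5.68-fold, 1.21 to 53.3). The intervals of the rest included 1, with ratios below 1 for Egr4, Ier2, Nr4a1 and Btg2. In tags, Npas4 missed the minimum. Tails of the GFP culture were longer by 20 nt for 0 of 1856 genes (0%) and shorter for 100 (5.39%), at a median change of −8.45 nt. Egr1 and Egr4 read 101.8 and 86.5 nt in that culture, below both values of the BDNF pair.

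With the GFP culture in place of the control, BDNF gave 19 genes higher in all 3 assays, of which 11 were among the 13. The BDNF libraries were the same ones that chose the 13, so this overlap is partly built in and is no independent recurrence. In single assays this pair had 2.08% of genes higher in RNA-seq, 1.49% in RPFs and 2.43% in tags. Dnajb1 and Gm13889 dropped out, with tag ratios of 1.61-fold and 1.86-fold, and kept RNA-seq ratios of 2.85-fold and 2.68-fold. Jun and Dusp6, which missed the tag threshold against the control, had tag ratios of 2.78-fold and 2.04-fold against the GFP culture.

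KCl, which depolarizes neurons, was applied for 30 min to younger cultures (DIV10) that had an unstimulated control of their own. KCl called 171 of 9031 genes higher in RNA-seq (1.89%), 148 of 12040 in RPFs (1.23%) and 104 of 7174 in tags (1.45%). Of the 13 genes, it called 6 higher in RNA-seq, 10 in RPFs and 8 in tags. Fos had 2857 RPFs after KCl and 263 without it (33.8-fold), Npas4 605 and 35 (53.7-fold) and Nr4a1 305 and 33 (28.7-fold). Btg2, Dnajb1 and Gm13889 were not called after KCl in any assay. Btg2 had 57 and 103 RPFs (1.72-fold) and 96 and 58 tags (1.29-fold), against 13.3-fold and 4.76-fold after BDNF. The cultures differed in age, so these values stand side by side. Its tail nevertheless went from 99.7 to 135.1 nt after KCl. KCl gave 27 of 2815 genes longer tails by 20 nt (0.959%). Of the genes higher after BDNF, 7 in RNA-seq, 17 in RPFs and 13 in tags were also higher after KCl, which was 13.0%, 27.0% and 24.5% of the BDNF genes and 4.09%, 11.5% and 12.5% of the KCl genes.

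Glu/gly called 168 of 6938 genes higher in RNA-seq (2.42%), 54 of 10841 in RPFs (0.498%) and 44 of 7551 in tags (0.583%), among them 8, 11 and 9 of the 13 genes. Set beside BDNF with the same control, the RPF ratio of Egr2 was 4.22-fold after glu/gly and 14.0-fold after BDNF, that of Ier2 7.41-fold and 18.5-fold, and that of Btg2 5.01-fold and 13.3-fold. Npas4 and Nr4a1 ran the other way in RPFs, at 20.2-fold and 6.60-fold after glu/gly against 14.5-fold and 5.48-fold after BDNF. Dnajb1 had 229 RPFs after glu/gly and 617 after BDNF, for 1.29-fold and 2.65-fold.

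Of 5732 genes with enough counts in all 3 assays, 4 were lower after BDNF in each (0.0698%). These were 3 genes of the contractile apparatus and Ecrg4. Acta2, smooth muscle actin, had 15 and 69 reads (0.231-fold, 0.123 to 0.407), 198 and 622 RPFs (0.373-fold) and 45 and 97 tags (0.457-fold). Tagln, an actin-binding protein of smooth muscle, had 39 and 98 reads, 361 and 932 RPFs, and 87 and 187 tags, with ratios of 0.422-fold to 0.459-fold. Cnn2, a calponin, had 9 and 22 reads, 61 and 179 RPFs, and 14 and 42 tags. Ecrg4, the gene for augurin, had 26 and 59 reads, 169 and 423 RPFs, and 141 and 284 tags. The GFP culture was low in these genes as well. Against the same control, its RPF ratios were 0.527-fold for Acta2 (223 RPFs), 0.50-fold for Tagln (317), 0.403-fold for Cnn2 (49) and 0.396-fold for Ecrg4 (114). With the GFP culture as the control of BDNF, 0 genes were lower in all 3 assays.

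The other genes with the clearest RNA-seq decrease included genes of dividing cells. Top2a, a topoisomerase of proliferating cells, had 5 and 45 reads (0.118-fold, 0.0365 to 0.296) and 25 and 118 RPFs, and Ckap2, a protein of the mitotic spindle, had 6 and 28 reads. Bace2, a protease, had 11 and 48 reads, and Ctnnal1, a relative of α-catenin, had 9 and 35. Summed over 4 markers of dividing cells, the BDNF culture had 7 reads, 41 RPFs and 14 tags, against 76, 224 and 43 in the control, for ratios of 0.0977-fold, 0.215-fold and 0.321-fold. The GFP culture had 3 reads, 35 RPFs and 7 tags, and the glu/gly culture 10, 53 and 16. The control of BDNF thus stood apart from the BDNF, glu/gly and GFP cultures in these markers. The DIV14 cultures transduced with miR-1 or miR-155 were not examined.

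Glial markers moved in the same direction by less. The 8 astrocyte markers summed to 0.776-fold (0.709 to 0.850) in RNA-seq, 0.822-fold in RPFs and 0.891-fold in tags, and none was called. In the GFP culture, against the same control, these sums were 0.754-fold, 0.784-fold and 0.829-fold. With the GFP culture as the control of BDNF, they were 1.03-fold, 1.05-fold and 1.07-fold. Oligodendrocyte-lineage markers summed to 0.588-fold (0.527 to 0.655) in RPFs and 0.607-fold in tags, and Olig2, a factor of that lineage, had 50 and 136 RPFs (0.431-fold, 0.305 to 0.600). The GFP culture had 0.792-fold in RPFs and 0.596-fold in tags for this lineage, and BDNF over GFP gave 0.742-fold and 1.02-fold. Vascular and fibroblast markers summed to 1.02-fold, 0.960-fold and 1.18-fold, and microglia markers had 59 and 87 RPFs in all (0.796-fold, 0.562 to 1.12). The GFP culture had 7 RPFs of microglia markers (0.118-fold, 0.0462 to 0.254), and BDNF over GFP gave 6.72-fold. In these markers the GFP culture thus stood further from the control than the BDNF culture did. Neuron markers summed to 1.11-fold (1.04 to 1.18), 1.04-fold and 1.10-fold. In the GFP culture they summed to 1.23-fold (1.15 to 1.31), 1.23-fold and 1.32-fold. At 13 and 12 reads, microglia had too few RNA-seq reads for a comparison. The part of the makeup of the cultures in the lower genes was not tested.

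**Figure D5:**
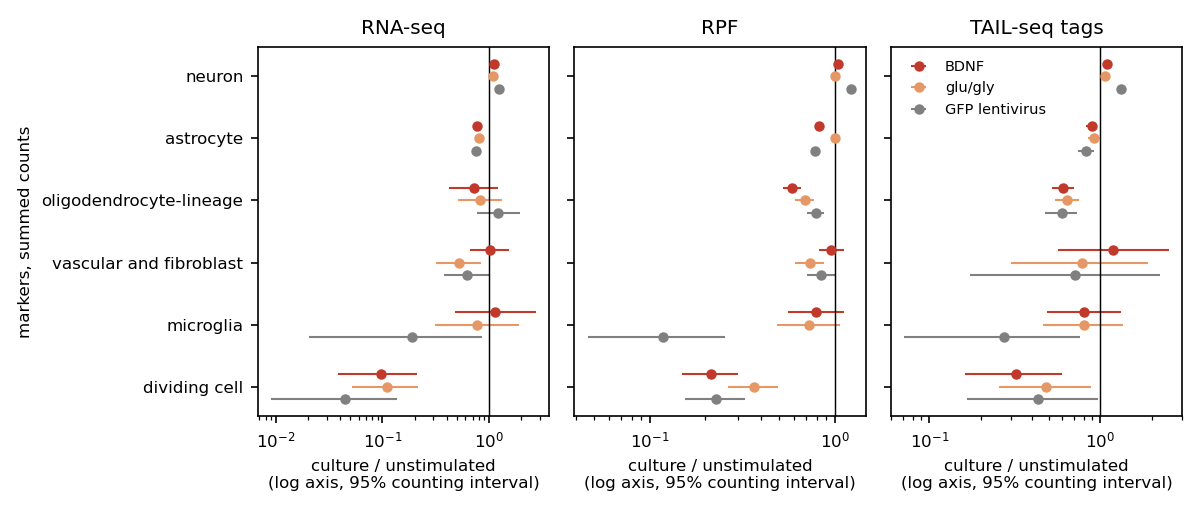
Summed counts of cell type markers in the BDNF, glu/gly and GFP cultures divided by those of the unstimulated DIV14 control (log axis), each point 1 sum ratio with its 95% counting interval, for RNA-seq, RPFs and TAIL-seq tags. Dividing cell markers lie at 0.0977-fold, 0.215-fold and 0.321-fold in the BDNF culture and below 1 in the other 2 cultures too. Neuron markers lie at 1.04-fold to 1.11-fold in the BDNF culture and at 1.23-fold to 1.32-fold in the GFP culture.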

How the data were processed

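The authors aligned the reads (the submitters' processing notes name STAR 2.4.2, bedtools and mm10) and deposited counts per gene for each library. Per the study's methods, RNA-seq reads and RPFs were counted on open reading frames without their first 50 nt, with 1 transcript per gene. The authors also deposited mean and median tail lengths per gene in nt with the TAIL-seq tag counts, RPM values (whose implied total exceeded the reads counted here on genes), RPKM values (RPM per kb of length, used here for no result), and log2 TE values. TE changes computed here from RPM matched the deposited log2 TE for all 4705 genes.

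Ratios, TE changes and tail differences were computed with Python 3.11.15, pandas 2.3.3, numpy 2.4.6 and scipy 1.17.1, and figures were drawn with matplotlib 3.10.9. Ratios have exact Clopper-Pearson intervals, and TE intervals come from the 4 counts by a normal approximation on the log scale. The code was tested on simulated data. Of 15320 accessions, 15205 had a symbol. Promoters, gene models and their sequences came from RefSeq, GRCm38.p6.

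The libraries, gene lists and thresholds were chosen with earlier results of these data known. Named genes were those called higher or lower in all 3 assays, the 5 with the clearest RNA-seq decrease, the 6 highest and 6 lowest called TE changes, the 10 largest tail gains and 5 largest losses, and list members. Some genes called in 2 assays were named after their values were seen. Alternatives covered scaling, count, tag and RPM minimums, thresholds, median tails and the GFP culture as control. The values of 1 list member are not reported here.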

Additional observations from a re-analysis of the deposited data

How the results depend on the processing

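Each culture had 1 library per assay, so no replicate could be left out, and differences between cultures, batches or library preparations cannot be told apart from BDNF. No paired analysis was possible because each group had 1 library per assay. RNA-seq was the shallowest assay and limits the TE values of induced genes most. The 13 genes kept their direction under every alternative run. Count minimums and fold thresholds leave a ratio as it is, so only the scalings and the GFP culture could have changed a direction. A gene called at 2-fold also had to pass at 1.5-fold and with no filter, so many of the counts that follow were fixed in advance. Of their ratios under these alternatives, 244 stayed on the same side of the rule and 16 no longer passed it (9 at 100 counts, 5 at 3-fold, 2 with the GFP culture as control). Of the 7 of these genes with tail values, all passed after centring, by median tails and at 10 nt, 5 passed 0.3 on the log2 scale (Fos at 0.295 and Gadd45g at 0.283 did not), 3 had 100 tags in both libraries and passed, 0 had 200 tags, and the 2 with 50 tags in the GFP culture passed against it. Median-ratio scaling and the authors' RPM moved no count of calls by more than 1.5 times.

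With no filter beyond 1 count, RNA-seq called 119 genes higher and 183 lower, RPFs 107 and 393, and tags 95 and 185, and 8 genes were lower in all 3 assays. At 100 counts, RNA-seq called 8 and 6, RPFs 20 and 65, and tags 15 and 9, with 4 higher and 1 lower in all 3. At 1.5-fold, RNA-seq called 140 and 183, RPFs 169 and 718, tags 136 and 279, and TE 41 and 219, with 24 lower in all 3. At 3-fold, RNA-seq called 17 and 10, RPFs 17 and 42, and tags 17 and 9, with 0 lower in all 3. With the GFP culture as control, RNA-seq called 132 higher, RPFs 157 and 111, tags 167 and 179, TE 8 and 120, and tails 95 longer and 1 shorter, with 0 lower in all 3. These follow from the thresholds and the control used. A 30 RPM minimum left 0 TE values higher and 1 lower, and centring gave 10 and 18. Tails were longer for 6 genes and shorter for 2 at 100 tags, 1 and 0 at 200 tags, 257 and 370 at 10 nt, 17 and 16 at 0.3 on the log2 scale, and 77 and 100 by median tails, and 21 were shorter after centring.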

Other observations

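Some changes were called in 1 or 2 of the assays. Serpinh1, a collagen chaperone, had 35 and 95 RNA-seq reads and 260 and 641 RPFs in the BDNF culture and the control, for ratios of 0.391-fold and 0.476-fold. Nrsn1, a membrane protein of neurons, had 31 and 108 RPFs (0.337-fold) and 156 and 147 tags (1.05-fold). The paper describes its expression in the cultures as too low for analysis, and no TE change is given for it here. Of 11 mRNAs with regulatory upstream reading frames, 7 had enough counts in RNA-seq, 7 in RPFs and 9 in tags. Ppp1r15a, also counted above among the early effectors, alone was called, in tags with 62 and 30 (2.04-fold). Of the TOP mRNAs outside the ribosomal proteins, 1 of 13 was called higher in tags, Eef1g, with 41 and 20. Over all genes, 0.674% were called higher in tags. These genes, apart from those of the lists, were picked after their values were seen.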
